A study of Mus musculus with 4 samples.

Results

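The imprinted genes Meg3, Rian, Dlk1, H19, Peg3, Peg10, Mest, Plagl1, Grb10 and Snrpn, 10 in all, were followed across 4 mouse embryonic stem (ES) cell arrays that differed in their copies of BAF250, a DNA-binding subunit of the SWI/SNF chromatin remodelling complex. Every probe set that the platform annotation ties to 1 of these symbols was taken, which gave 38 of the 45101 probe sets on the array. Each array carries total RNA of 1 sample. There were 2 homozygous BAF250 knock-out samples, named ko1 and ko2, with 1 heterozygous knock-out and 1 wild type sample. All were kept free of feeder cells on gelatin, in medium with 10% serum and leukocyte inhibitory factor, as the labels name it. The sources used here do not say how the alleles were made, which strain or sex the cells had, or whether ko1 and ko2 are separate clones or cultures. The 10 genes were chosen by earlier log2 differences of the same signals between these arrays, so their differences are described here with no test.

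An imprinted gene is expressed from only the maternal or only the paternal chromosome, because DNA methylation laid down in the egg or the sperm is kept at a control region nearby after fertilisation. Imprinted genes lie in clusters that share such a region. In the Dlk1-Meg3 cluster on chromosome 12 the maternal chromosome expresses the long noncoding RNAs Meg3, Rian and Mirg, while the paternal one expresses Dlk1, a membrane protein that restrains differentiation. H19, a maternal noncoding RNA, shares enhancers with the paternal growth factor gene Igf2 beside it on chromosome 7. In mouse ES cells the Meg3 cluster and other imprinted loci are known to differ between lines and with culture. The arrays measure RNA summed over both chromosomes and neither methylation nor the allele of origin.

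The sequence around the Meg3 start is shown first, because Meg3 was the clearest of the genes that were lower in the homozygous samples, and that of Peg3 beside it, because Peg3 stood on the opposite side. Both are RefSeq promoters of build GRCm38.p6, 250 bases before to 50 after the start, written 5′ to 3′ on the gene's strand. Capitals mark TGACGTCA, the full cyclic AMP response element, and TGCCGC with its reverse complement, the core that the imprint-keeping zinc finger protein ZFP57 recognises when methylated.
Meg3, chr12:109540746-109541045, plus strand: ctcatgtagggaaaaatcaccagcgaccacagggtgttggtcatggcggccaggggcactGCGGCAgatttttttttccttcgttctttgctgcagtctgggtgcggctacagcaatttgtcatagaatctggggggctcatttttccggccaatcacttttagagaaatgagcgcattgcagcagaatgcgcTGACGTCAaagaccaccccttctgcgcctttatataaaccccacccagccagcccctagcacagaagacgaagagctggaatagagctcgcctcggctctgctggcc
Peg3, chr7:6730370-6730669, minus strand: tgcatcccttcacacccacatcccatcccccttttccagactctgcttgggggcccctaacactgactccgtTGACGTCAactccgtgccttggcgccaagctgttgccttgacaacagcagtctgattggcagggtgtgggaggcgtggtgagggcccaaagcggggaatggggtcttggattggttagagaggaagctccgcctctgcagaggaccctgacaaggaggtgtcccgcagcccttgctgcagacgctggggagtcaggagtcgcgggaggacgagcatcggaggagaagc
Both held 1 copy of TGACGTCA, 57 bases before the start in Meg3 and 178 before it in Peg3, against 1.79% of the 32851 RefSeq promoters of the same length. TGCCGC on either strand was in the Meg3 promoter but not in the Peg3 promoter, and in 11.6% of all promoters. The table held 15 starts for 8 of the 10 genes. TGACGTCA was in 2 of the 15, the Meg3 and Peg3 starts shown, and TGCCGC was in 6. Those 6 were 1 start each of Meg3, Grb10, Plagl1 and Snrpn and a pair of Mest starts 3 bases apart. The Meg3 and Peg3 promoters shown each held 13 CG dinucleotides, against a median of 7 over all promoters. Another Meg3 start, not shown, held 1 CG dinucleotide and neither TGACGTCA nor TGCCGC. These matches describe the letters in the windows and do not show that a factor was bound. H19 and Peg10 have no entry in that table.

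Signals were MAS5 intensities per probe set, and the arrays differed in level and in quality signs. The median signal was 4.01 in wild type and between 2.61 and 2.74 on the other arrays. Unless called deposited, a log2 difference of log2(signal + 0.675) has the difference of the median gene taken off, which was -0.75 when homozygous cells were set against wild type, -0.03 when set against heterozygous, and -0.68 between heterozygous and wild type. The brightest of 27 bacterial controls without spiked RNA set the background, at 5.55 for ko1, 3.82 for ko2, 7.57 for wild type and 6.92 for heterozygous. A fold is written as at least N where 1 or more arrays on the dimmer side were below background and were set at it; it is computed on the scale of the log2 differences, with the median gene taken off. The actin controls gave 3' to 5' ratios of 5.01 for ko1, 2.61 for ko2, 1.30 for wild type and 2.86 for heterozygous; a high ratio is a sign of degraded RNA. From here on, signals follow the order ko1 and ko2, against wild type and heterozygous. The labels do not say which BAF250 gene was targeted. Arid1a, which encodes BAF250a, read 7.03 and 3.57 against 109 and 50.4 on its brighter probe set. Its other probe set read 17.3 and 1.06 against 42.9 and 24.1, where ko1 was above background and at a log2 difference of -0.53 from wild type. All 10 ES cell markers on the list were above background on all 4 arrays and lower in both homozygous samples. Their summed signals were 770.7 and 884.2 against 3408 and 1985. In deposited signal both homozygous arrays were lower in 46.3% of all probe sets above background in wild type and heterozygous. Of the 10, 7 fell against wild type (limma on deposited signals, adjusted p below 0.05), beside 0.612% of all genes. Not all 7 calls can hold under other scalings. In this comparison only 5 genes in all were called lower after median centring, and 1 after quantile normalization. All 14 markers of extraembryonic endoderm were higher in both homozygous samples, with summed signals of 7307 and 4017 against 179 and 125, and 9 of the 14 rose against wild type, beside 0.401% of all genes. Of 9 fibroblast markers measured, 3 were higher in both homozygous samples and 2 lower, with summed signals between 29.3 and 60.9 on the 4 arrays and Prrx1 below background throughout. Of 8 trophoblast markers 2 were higher in both homozygous samples and Eomes was below background throughout. Over all probe sets, both homozygous arrays were higher in 11.9% and lower in 23.7% in deposited signal. The first share was 20.2% among probe sets above background in both homozygous arrays, as all 14 endoderm markers were. The summed trophoblast signals were 469 and 356 against 112 and 120. The keratins Krt8 and Krt18, which other epithelia also express, made up 440.6 and 321.7 against 71.3 and 100.1 of these sums, and the other 6 markers 28.0 and 34.1 against 40.8 and 19.5. Whether any of these shifts had a part in the values below was not tested. In such bulk samples fewer cells of a type and less RNA per cell cannot be told apart.

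Meg3 RNA was lower in both homozygous samples wherever the wild type and heterozygous arrays measured it above background. Meg3 has 11 probe sets, and 6 of them were above background in both wild type and heterozygous. On all 6, ko1 and ko2 were both below wild type and heterozygous. Such a position was held by 46.3% of the 7001 probe sets on the array that were above background in wild type and heterozygous, or by 30.9% relative to the median gene. The median log2 difference of the 6 was -2.09 for homozygous minus wild type and -3.08 for homozygous minus heterozygous, beside -0.18 and -0.26 over those 7001. These probe sets were kept for a high signal in wild type and heterozygous, which by itself favours lower homozygous values there.

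The brightest Meg3 probe set, 1439380_x_at, read 10.4 and 10.0 against 85.6 and 108. It was above background on all 4 arrays, and the groups did not overlap. Relative to the median gene the homozygous samples were 4.73-fold lower than wild type (log2 difference -2.24 ± 0.03, SD, n = 2 samples) and 9.80-fold lower than heterozygous. The suffix of this probe set marks probes that may also match other transcripts, so the other probe sets bear on it.

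The next 3 by brightness had both homozygous samples below the other arrays with a wider gap between ko1 and ko2. Probe set 1452183_a_at read 1.43 and 12.9 against 49.9 and 78.6. Probe set 1426758_s_at, designed on the same source sequence, read 9.59 and 2.37 against 52.8 and 40.8. So on these 2 readings of 1 source ko1 and ko2 changed places, while both stayed below the other arrays. Probe set 1452905_at read 9.61 and 2.26 against 34.6 and 58.2. On each of the 3, only 1 homozygous sample was below background. Homozygous cells were at least 3.28-fold, at least 4.69-fold and at least 3.10-fold lower than wild type on them in this order, and at least 8.43-fold, at least 5.97-fold and at least 8.47-fold lower than heterozygous.

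The remaining pair of the 6 was dimmer. Probe set 1428764_at read 1.32 and 5.62 against 13.4 and 13.2. Probe set 1436713_s_at read 0.612 and 4.31 against 11.8 and 7.88. They were at least 1.34-fold and at least 1.33-fold dimmer in homozygous cells than in wild type, with ko1 alone below background. The part of the actin ratio, which differed between the arrays, was not tested.

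The other 5 Meg3 probe sets did not show this order relative to the median gene. Probe set 1436057_at read 12.3 and 7.25 against 17.9 and 3.49, with the homozygous samples between the others. Probe sets 1429256_at, 1429257_at, 1428765_at and 1452906_at read at most 9.37 on any array and were below background in wild type. Relative to the median gene these 4 were higher in homozygous cells than wild type, at 1.59, 1.02, 1.41 and 0.45. Against heterozygous they were lower, at -0.95, -1.67, -0.74 and -1.90. The median of the 5 was 1.02 against wild type and -0.95 against heterozygous. Over all 11 the median log2 difference was -1.25 for homozygous minus wild type and -1.90 for homozygous minus heterozygous. Between heterozygous and wild type the order of Meg3 depended on the scaling. In deposited signal heterozygous was higher on 3 and lower on 3 of the 6 probe sets measured in both. Relative to the median gene it was higher on all 6, with a median log2 difference of 0.84.

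**Figure D1:**
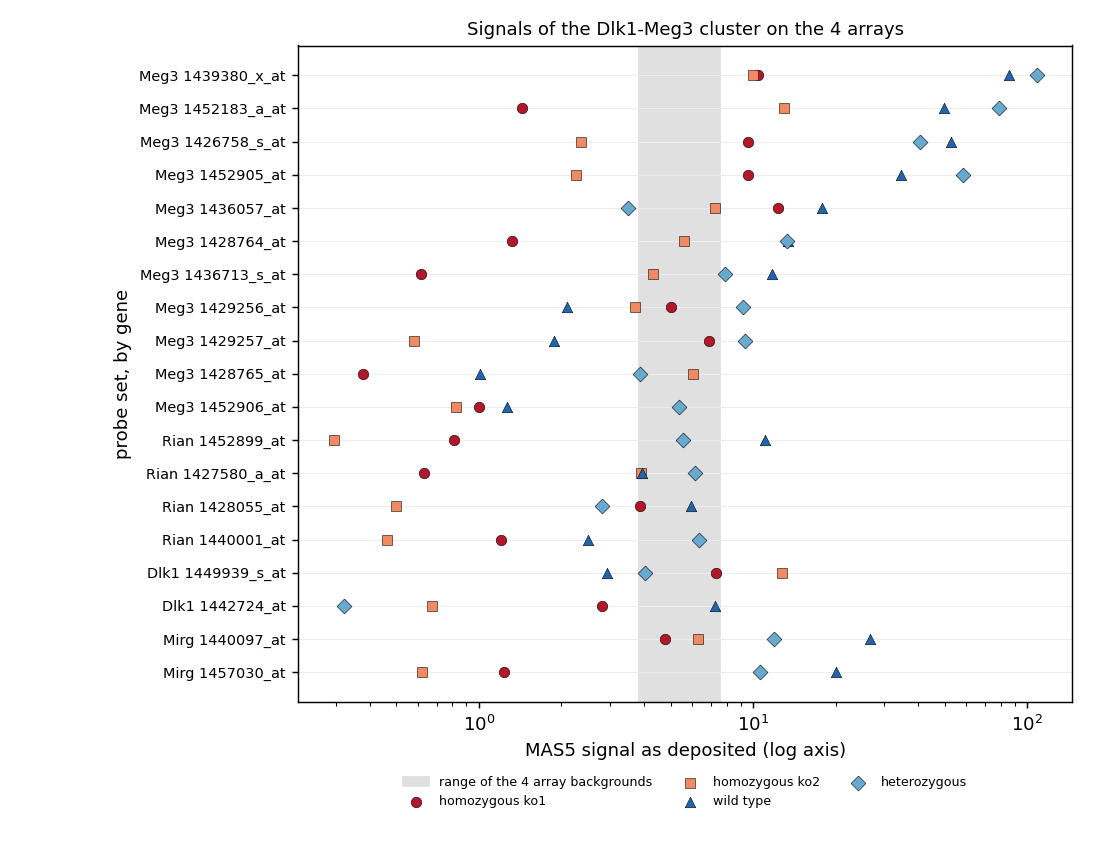
MAS5 signals (log axis) of each probe set of Meg3, Rian, Dlk1 and Mirg on the 4 arrays; each symbol is 1 array and the grey band spans the array backgrounds. On the 6 Meg3 probe sets above background in wild type and heterozygous, both homozygous samples lie to the left of both other arrays, as on both Mirg probe sets, while Dlk1 1449939_s_at has them on the right.

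The noncoding RNA genes downstream of Meg3 were read at lower signals. Rian, the host of many small nucleolar RNAs, has 4 probe sets, of which 2 were above background on 1 array each. Its brightest, 1452899_at, read 0.810 and 0.295 against 11.02 and 5.53. Only wild type was above background, at least 1.32-fold over the homozygous samples. Of the other 3 Rian probe sets none exceeded 6.37, and their log2 differences from wild type ran from -0.77 to -0.17. Mirg, the microRNA host at the far end of the cluster, was not among the 10 genes. Its brighter probe set read 4.76 and 6.28 against 26.7 and 11.9, and the other 1.24 and 0.617 against 19.99 and 10.6. Both Mirg probe sets had the homozygous samples below both other arrays. That position was held by 46.3% of all probe sets above background in wild type and heterozygous, or by 30.9% relative to the median gene. Homozygous Mirg was at least 2.49-fold and at least 2.33-fold lower than wild type on them. The brighter one did not pass the test across all genes (deposited difference -2.16 ± 0.75, SE; limma adjusted p = 0.198).

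Dlk1, the paternally expressed partner, read higher in the homozygous samples on the 1 probe set that was above background on any array. Probe set 1449939_s_at read 7.32 and 12.8, both above background, against 2.94 and 4.03, both below it. Relative to the median gene that is at least 2.11-fold higher than wild type and at least 1.39-fold higher than heterozygous. In deposited signal the bound was at least 1.26-fold against wild type, and ko1 was under the background of the wild type array. This probe set counts as measured for its homozygous signals alone, which by itself favours this order. Of the 9241 probe sets above background in both homozygous arrays, 20.2% had both above both others, or 38% relative to the median gene. The second Dlk1 probe set, 1442724_at, was below background on all 4 arrays. The protein-coding neighbours Rtl1 and Dio3 were matched to no probe set by symbol.

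The largest difference from wild type among the 10 genes was on the probe set annotated to H19 and Mir675 together; the microRNA is cut from the H19 transcript, so the signal cannot be assigned to one of the names. It read 35.1 and 94.2 against 2.30 and 1.46, the last pair below background. The groups did not overlap, and the H19 signal was at least 11.8-fold higher in homozygous cells than wild type and at least 7.83-fold higher than heterozygous. Both homozygous arrays read above both others in 20.2% of the 9241 probe sets above background in both homozygous arrays, or in 38% relative to the median gene. H19 was in that set for its high homozygous signals, which by itself favours this position. The mature arms of the microRNA are given because the probe set carries its name, with the seed, bases 2 to 8, in capitals (RefSeq, GRCm38.p6, minus strand of chromosome 7); their levels were not measured here.
miR-675-5p, chr7:142577112-142577133: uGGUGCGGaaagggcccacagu
miR-675-3p, chr7:142577078-142577099: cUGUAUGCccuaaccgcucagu
The 2 arms have different seeds, GGUGCGG and UGUAUGC.

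Igf2, the growth factor gene that shares enhancers with H19, was tested as one of the other imprinted genes and rose against heterozygous. Its brighter probe set read 24.4 and 46.8 against 16.6 and 4.83, the last below background. It was at least 4.64-fold higher than in heterozygous (deposited log2 difference 2.65 ± 0.63, SE; limma adjusted p = 0.0189), beside 0.699% of all 13729 genes called higher and 0.0583% called lower. The difference from wild type, 1.00 ± 0.63 deposited and 1.74 relative to the median gene, did not pass (limma adjusted p = 0.495). Its second probe set read 4.03 and 8.55 against 3.35 and 0.392, with ko2 alone above background. Ins2, the insulin gene next to Igf2, did not pass in any of the 3 comparisons and read between 1.04 and 9.25. The call of Igf2 held with a larger pseudocount (limma adjusted p = 0.0129) and was lost under the 6 other settings that give this comparison (limma adjusted p between 0.0559 and 0.634). The 14 endoderm markers were higher in the same 2 arrays as H19 and Igf2; their part in these differences was not tested.

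Among the paternally expressed genes at other loci, Peg3 stood higher in the homozygous samples and Snrpn did not. Peg3, a zinc finger gene, has 5 probe sets. The brightest, 1433924_at, read 34.3 and 37.0 against 14.2 and 6.85, the last just below background. The groups did not overlap, and relative to the median gene Peg3 was 4.10-fold higher in homozygous cells than wild type (2.03 ± 0.08, SD, n = 2 samples) and at least 4.89-fold higher than heterozygous. Of all probe sets above background in both homozygous arrays, 20.2% had both above both others, or 38% relative to the median gene. The second, 1417355_at, read 12.7 and 18.9 against 15.1 and 0.632. There the homozygous samples overlapped wild type, and heterozygous stood apart from the other arrays. The other 3 Peg3 probe sets were below background on all arrays. Of the other Peg3 cluster genes on the list, Usp29, Zim1 and Zim3 were too dim to be tested.

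Snrpn, which encodes a splicing protein and shares its transcript with Snurf, had the highest signals of the 10 genes. Of its 7 probe sets 6 are annotated to Snurf and Snrpn together, and 4 of those were above background in wild type and heterozygous. The brightest, 1415895_at, read 96.5 and 153 against 284 and 178, with both homozygous samples below the others and log2 differences from wild type of -0.80 in ko1 and -0.14 in ko2 relative to the median gene. The next, 1415896_x_at, read 82.1 and 104 against 138 and 78.5, so that the groups overlapped. Of the 4 measured, 3 had both homozygous samples below the others in deposited signal and 1 relative to the median gene. Over all probe sets above background in wild type and heterozygous the shares were 46.3% and 30.9%. Over the 7 probe sets log2 differences from wild type were between -0.56 and 0.48.

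Genes of the Snrpn cluster outside the list of 10 did not pass the test in any comparison. Ndn, a paternally expressed growth suppressor, read 11.8 and 11.7 against 19.4 and 1.44 on its brightest probe set (homozygous minus heterozygous, deposited, 2.56 ± 0.81, SE; limma adjusted p = 0.214). In that comparison its other probe sets stood between -2.19 and 0.84 relative to the median gene. Ube3a, the ubiquitin ligase gene that is maternally expressed in neurons, read 8.52 and 7.42 against 3.24 and 3.23 (homozygous minus wild type, deposited, 1.14 ± 1.04; limma adjusted p = 0.617). Magel2 and Atp10a read at most 8.43 on any array on the probe sets tested.

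Grb10, an adaptor that restrains insulin and growth factor receptors, was lower in the homozygous samples on its brightest probe set. Probe set 1425458_a_at read 8.21 and 8.16 against 34.98 and 17.01. It was above background on every array, and the groups did not overlap. Both homozygous arrays were lower in 46.3% of all probe sets above background in wild type and heterozygous, or in 30.9% relative to the median gene. Relative to the median gene Grb10 was 2.40-fold lower than in wild type and 1.95-fold lower than in heterozygous. Probe set 1425457_a_at read 4.29 and 3.70 against 12.7 and 4.50, with heterozygous close to the homozygous samples. The dimmest, 1430164_a_at, read between 3.43 and 5.18 on all arrays.

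Mest was measured on part of the arrays, and Peg10 and Plagl1 were near background. Mest, a paternally expressed hydrolase gene of mesoderm, read 4.89 and 12.9 against 26.2 and 4.84. The homozygous samples were apart, with ko2 above background and ko1 at the level of heterozygous, and wild type stood at least 1.74-fold above the homozygous mean relative to the median gene. Peg10, a gene derived from a retrotransposon and needed for the placenta, read 2.20 and 8.29 against 1.31 and 3.08, with ko2 alone above background. Plagl1, a zinc finger regulator of other imprinted genes, has 3 probe sets; 1 was above background in ko1 only and 1 in ko2 only. None of its signals exceeded 6.596. In the clusters of Peg10 and Mest, none of the other measured genes passed. Sgce, which shares a control region with Peg10, read 16.3 and 6.83 against 1.08 and 6.85 (homozygous minus wild type, deposited, 2.69 ± 0.99, SE; limma adjusted p = 0.246). Casd1, Ppp1r9a, Asb4 and Pon2 near Peg10, and Copg2 and Klf14 near Mest, read at most 11.9 on any array on the probe sets tested.

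**Figure D2:**
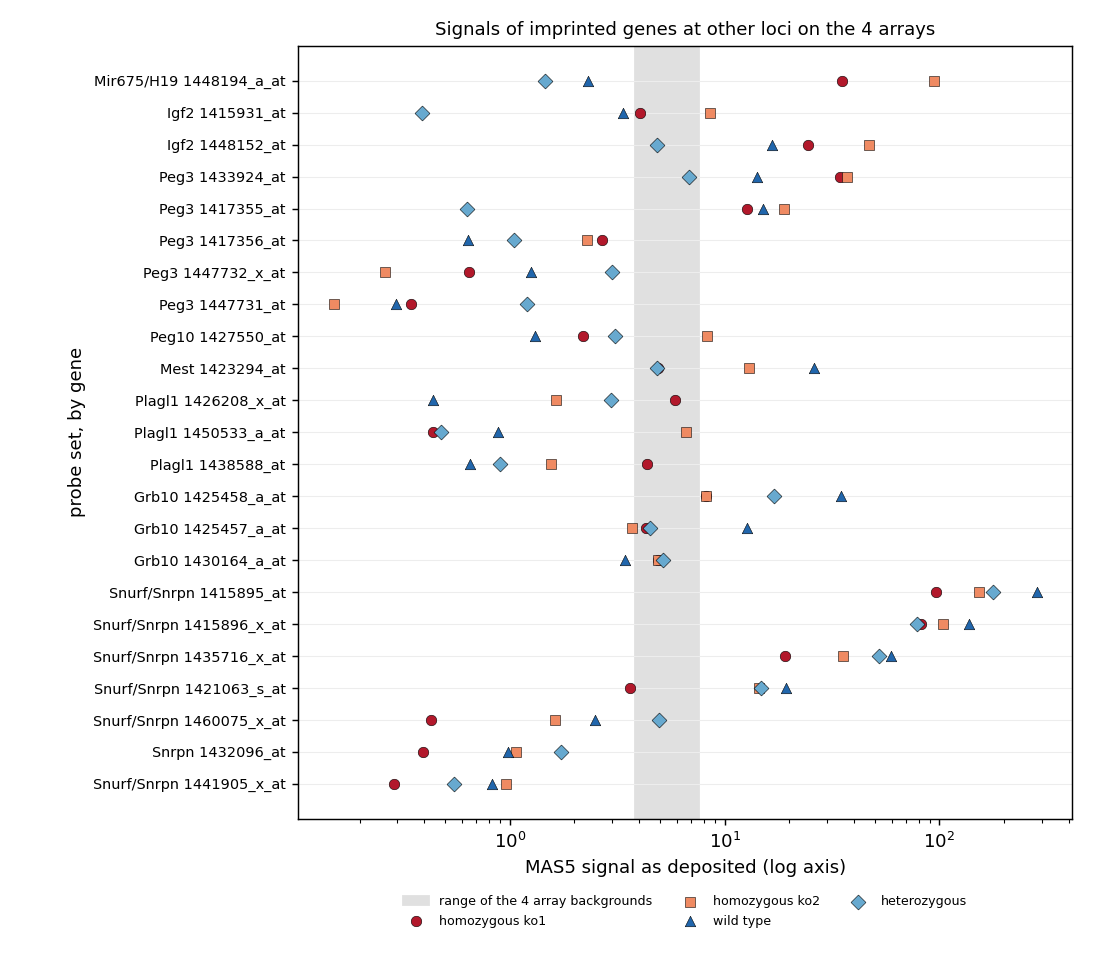
MAS5 signals (log axis) of each probe set of H19 with Mir675, Igf2, Peg3, Peg10, Mest, Plagl1, Grb10 and Snrpn on the 4 arrays; each symbol is 1 array and the grey band spans the array backgrounds. The homozygous symbols lie to the right for H19 with Mir675, Igf2 and Peg3 1433924_at, to the left for Grb10 1425458_a_at, and among the other arrays for Mest.

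Set side by side, the Meg3 cluster and the other loci differed in their medians over probe sets. Of the 17 probe sets of the cluster 11 are of Meg3, so its median leans on 1 gene. By gene, the median for homozygous minus wild type was -1.25 for Meg3, -0.57 for Rian and 0.57 for Dlk1. Among the other 7 genes it was -0.88 for Mest, -0.77 for Grb10 and -0.25 for Snrpn. It was 5.03 for H19, 2.10 for Peg10, 2.08 for Plagl1 and 0.78 for Peg3. So both the cluster and the other loci held genes with medians below 0 and above it. Over the 17 probe sets of Meg3, Rian and Dlk1 the median log2 difference was -0.77 for homozygous minus wild type, beside 0.48 over the 21 of the other 7 genes (0.82 without ko1 and 0.029 without ko2) and 0.25 over all 45037 probe sets that are not controls. For homozygous minus heterozygous the Meg3 cluster stood at -1.73 (-2.13 without ko2 and -1.51 without ko1), beside 0.06 for the other 7 genes and 0.06 over all probe sets. For heterozygous minus wild type the medians were 1.06, 0.39 and 0.18. The 3 comparisons share arrays and are not independent of each other. Over all 38 probe sets the median for homozygous minus wild type was -0.09, and it turned positive, 0.31, without ko1. Both homozygous samples were below both other arrays on 17 of the 38, above both on 5 and mixed on 16. Over all probe sets the first position was held by 23.7% and the second by 11.9%. Relative to the median gene the counts were 11 and 7, against 14.4% and 22.4%. Signal level was a limit throughout, since 11 of the 38 were below background on all 4 arrays and 29 passed the filter on dim signals used for testing.

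**Figure D3:**
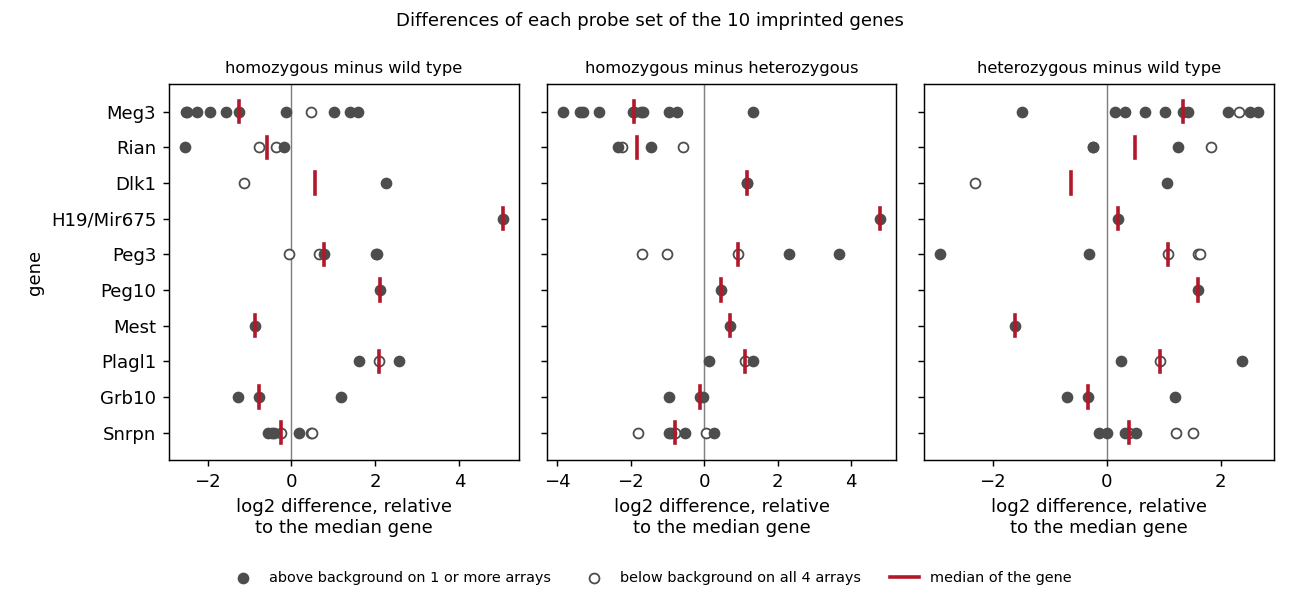
Log2 differences of every probe set of the 10 genes in the 3 comparisons, relative to the median gene; filled points were above background on 1 or more arrays, open points on none, and red bars are medians per gene. Against wild type the Meg3 points lie on both sides of 0, from -2.51 to 1.59. Against heterozygous, 10 of the 11 Meg3 points lie below 0, among them the 1 below background on all 4 arrays. The H19 with Mir675 point lies there at 4.80, from a heterozygous reading below background.

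A wider list of 59 other imprinted genes showed how the rest of the class behaved, and 39 of them passed the signal filter. For homozygous minus wild type none passed the test (limma on deposited signals, Benjamini-Hochberg adjustment over 13729 genes, of which 1.01% passed, 0.401% higher and 0.612% lower). Of the 39, 6 had an unadjusted p below 0.05, beside 11.9% of all genes. Their median log2 difference was -0.19, with 17 above the median gene and 21 below. For homozygous minus heterozygous Igf2 rose and none fell, beside 0.758% of all genes called. Another 3 of the 39 had an unadjusted p below 0.05, beside 6.87% of all genes, and the median was -0.13. For heterozygous minus wild type none passed, beside 0.0146% of all genes (limma), and 3 had an unadjusted p below 0.05, beside 7.57% of all genes. The largest differences from wild type outside the clusters described above, relative to the median gene, were of H13, Nnat, Rasgrf1 and Gatm, none past the test. H13, a signal peptide peptidase gene, read 11.1 and 16.6 against 1.69 and 0.415 on its brightest probe set (3.33 ± 1.16, SE). Its other probe sets stood between -0.27 and 0.78. The next by brightness read 3.96 and 4.77 against 8.90 and 0.652. Nnat, a membrane protein gene of neurons, stood at 1.79 ± 1.35, Rasgrf1, an exchange factor of Ras, at -1.65 ± 1.28 and Gatm, an enzyme of creatine synthesis, at 1.44 ± 1.35.

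**Figure D4:**
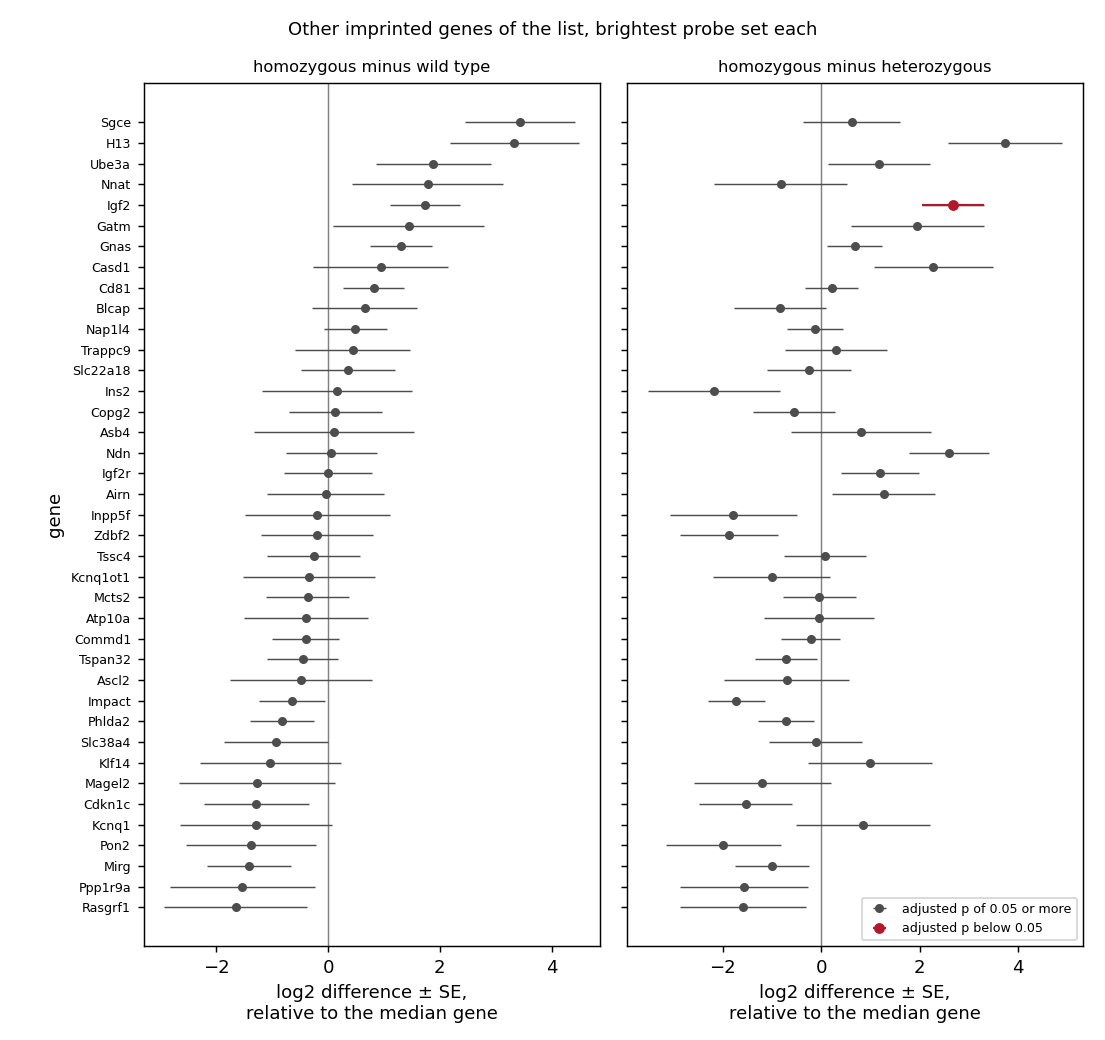
Log2 differences relative to the median gene, with limma standard errors, of the 39 other imprinted genes past the signal filter, each by its brightest probe set and ordered by homozygous minus wild type. Most lie within 2 log2 units of 0 in both comparisons, and Igf2 against heterozygous, in red, is the only one past the threshold.

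Factors that lay down, keep or remove imprint marks were lower than the median gene in most cases. Of 16 measured, 15 stood below the median gene for homozygous minus wild type (median -0.69), 1 fell and 15 did not pass. An unadjusted p below 0.05 (limma) was reached by 10 of the 16, beside 11.9% of all genes. These p-values are of deposited differences, in which the median gene itself stood at -0.75, so they include that shift. The 1 that fell was Tet1, an oxidase that removes DNA methylation. It read 1.03 and 8.33 against 53.6 and 13.3, and was at least 4.32-fold lower than wild type (deposited difference -3.79 ± 0.82, SE; limma adjusted p = 0.00681). Of its other 3 probe sets 1 was at least 3.74-fold lower, 1 stood at -0.89 and 1, with ko1 alone above background, at 2.17. The call held with a larger pseudocount (limma adjusted p = 0.00089) and was lost under the 6 other settings that give this comparison (limma adjusted p between 0.0869 and 0.545), among them centring each array on its median (0.327) and averaging the probe sets of a gene (0.385). Zfp57, which keeps methylation at imprint control regions, read 10.2 and 2.56 against 34.8 and 12.4 (deposited difference -2.58 ± 0.76, SE; limma adjusted p = 0.0941). Eed, a subunit of polycomb complex 2, stood at -1.42 ± 0.66 relative to the median gene and Trim28, the corepressor that ZFP57 recruits, at -1.20 ± 0.75, neither past the test. Against heterozygous none of the 16 passed in limma, and 3 had an unadjusted p below 0.05, beside 6.87% of all genes. For heterozygous minus wild type none passed in limma either, with 4 at an unadjusted p below 0.05, beside 7.57% of all genes.

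The genes whose pattern over the 4 arrays was most like that of Meg3 were Zfp593, C1qb, Camk1, Gm30214 and Slc30a10. Likeness was the Euclidean distance between log2 profiles, each array centred on its median gene and each gene on its mean, and ran from 0.113 to 0.413 for these 5 of 13729 genes. Zfp593, the nearest, read 0.874 and 0.780 against 10.6 and 13.1. All 5 were below background in both homozygous samples, unlike the Meg3 probe set they were compared with, so their homozygous levels are bounds.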

How the data were processed

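Total RNA of 4 ES cell samples was hybridised to 1 Affymetrix array each. The authors deposited linear intensities, 1 signal per probe set, which the submitters' processing notes credit to MAS5. The sources used here give no MAS5 version, scaling target or detection calls. Gene names came from the platform annotation: 34958 probe sets had 1 symbol, 932 several and 9211 none. Sequences came from RefSeq (GRCm38.p6).

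Probe sets of several symbols were left out of the gene tests. Each gene was represented by its brightest probe set, and the 13729 genes whose mean signal passed 2.55 (the 40th percentile) were tested. The scale was log2(signal + 0.675), the added value being the 20th percentile of all values, which understates changes of dim genes. limma 3.58.1 in R 4.3.3 fitted 1 mean per genotype with an intensity trend to the deposited signals; genes with a Benjamini-Hochberg adjusted p below 0.05 were called. Only the gap between ko1 and ko2 informs the spread (1 residual degree of freedom), and it was assumed for the single arrays too. The labels do not say that the arrays come from separate cultures, so a p-value reflects no more than the spread of these samples, which may be technical, and 4 arrays limit the precision. The fit was tested on simulated data.

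The members and lists were chosen with earlier results of these data known. Genes named were the 10 members, called genes of the imprinted and factor lists, measured genes of the members' clusters, the 4 largest other differences of each list, and the 5 genes most like Meg3. No value of the members was tested. Alternatives were the pseudocount (smaller by a factor of 16, or the 40th percentile), quantile normalization, median centring, no filter, averaged probe sets, no trend, 2 groups, and each homozygous sample left out.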

Additional observations from a re-analysis of the deposited data

How the results depend on the processing

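The single-array groups are the main limit, and dim signal the second. The count of genes called for homozygous minus wild type, 139 (55 higher and 84 lower), was 55 with the pseudocount divided by 16, 33 after quantile normalization (32 higher and 1 lower), 50 after median centring (45 higher and 5 lower), 44 without the filter, 7 with probe sets averaged, 0 without the intensity trend and 90 in the fit of 2 groups. For homozygous minus heterozygous, 104 (96 higher and 8 lower) became 45 after quantile normalization, 48 after median centring, 55 without the filter, 10 with probe sets averaged and 0 without the trend. The 2 genes called for heterozygous minus wild type became 0 under each alternative but the larger pseudocount. The single other imprinted gene called against heterozygous, Igf2, and the single imprint factor called against wild type, Tet1, likewise became 0 with the smaller pseudocount, after quantile normalization, after median centring, without the filter, with probe sets averaged and without the trend; in the fit of 2 groups Igf2 was lost (0) and Tet1 was not. Of the imprint factors against heterozygous, 1 was called with the larger pseudocount (Dnmt3b) and 1 in the fit of 2 groups (Tet1), against 0 in the main setting. The cause of these losses was not tested.

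The median of the Meg3 cluster for homozygous minus wild type, -0.77, was -1.20 with the smaller pseudocount, -0.46 with the larger, -0.86 after quantile normalization, -0.95 after median centring, -0.95 over probe sets past the filter and -1.25 over those above background on 1 or more arrays, the last chosen after seeing the data. It was between -0.61 and -0.57 with 1 homozygous sample left out. For homozygous minus heterozygous it was -2.17 with the smaller pseudocount, against -1.73. For heterozygous minus wild type, 1.06, it was 1.19, 0.94, 1.09 after quantile normalization and 0.99 after median centring. The median over all 38 probe sets for homozygous minus wild type, -0.09, was -0.42 over those past the filter and -0.078 without ko2 and 0.31 without ko1; for heterozygous minus wild type, 0.80, it was 0.32 over those past the filter and 0.32 over those above background. The median over the Meg3 cluster probe sets kept its sign under each alternative run, in all 3 comparisons, while its size moved. The genes were chosen by earlier differences of the same signals, and each alternative reused the same arrays. The kept sign is therefore no independent evidence of a difference. No paired analysis was possible because the groups share fewer than 2 replicate numbers.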
